A study of Homo sapiens with 12 samples.

Results

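The imprinted DLK1-DIO3 region on the long arm of chromosome 14 holds one of the largest miRNA clusters of the human genome, and its miRNA were followed here in extracellular vesicles (EV) along cardiomyocyte differentiation. Members were taken by name, as the rows of the miRNA count table with any count that carry 1 of 46 precursor names of the cluster, whichever arm they come from. This gave 29 miRNA of the 1133 in the table, from 26 of the 46 precursor names. Small RNA was sequenced from 12 EV preparations of the established human induced pluripotent stem cell line iPS(IMR90)-4, as 4 groups of 3 preparations, each from a separate culture. hiPSC-EV came from undifferentiated cells at day 0, with expansion medium conditioned for 24 h. CPC-EV came from cardiac progenitors at day 6, with differentiation medium conditioned for 72 h. CMi-EV came from immature cardiomyocytes at day 15, with maintenance medium conditioned for 48 h. CMm-EV came from more mature cardiomyocytes at day 35, kept since day 15 in a glucose-free maturation medium with galactose and fatty acids, which was conditioned for 48 h. Cells were in monolayers for hiPSC-EV and CPC-EV, and in aggregates under dynamic culture for CMi-EV and CMm-EV. Stage and medium changed at every step, conditioning time at every step but that from CMi-EV to CMm-EV, and culture format from CPC-EV to CMi-EV. The parts of what changed together cannot be told apart, and all groups derive from a single cell line.

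In this region the protein-coding genes DLK1, RTL1 and DIO3 are expressed from the paternal chromosome, and the noncoding RNA MEG3, MEG8 and MEG9, with the miRNA and many small nucleolar RNA, from the maternal one. The miRNA lie in a proximal block, partly antisense to RTL1, and in a longer distal block downstream, and both are thought to be cut from long maternal transcripts. The cluster is restricted to placental mammals, and the activity of the locus is known to vary between pluripotent stem cell lines.

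The 10 members with the highest mean level over the 12 libraries are shown here, since the values below turn on them. The sequences are the mature forms of RefSeq on GRCh38.p14, in which all 29 members were found, written 5′ to 3′ with the seed (bases 2 to 8) in capitals.
hsa-miR-127-3p: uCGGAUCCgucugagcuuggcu
hsa-miR-654-3p: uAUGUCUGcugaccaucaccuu
hsa-miR-370-3p: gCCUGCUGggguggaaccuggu
hsa-miR-409-3p: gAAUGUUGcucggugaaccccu
hsa-miR-409-5p: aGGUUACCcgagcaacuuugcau
hsa-miR-494-3p: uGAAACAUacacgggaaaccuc
hsa-miR-485-3p: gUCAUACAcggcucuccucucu
hsa-miR-323b-3p: cCCAAUACacggucgaccucuu
hsa-miR-495-3p: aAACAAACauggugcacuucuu
hsa-miR-382-5p: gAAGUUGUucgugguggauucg

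Each of these 10 carries a seed of its own. Over all 29 members there were 28 different seeds, the shared one belonging to miR-379-3p and miR-411-3p, and the mature lengths ran from 21 to 23 bases. Outside the members, the seed of miR-485-3p recurs in miR-539-3p and that of miR-495-3p in miR-5688. miR-329-3p and miR-376a-3p are each encoded at 2 places of the cluster, so that their counts cannot be assigned to either.

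All members lie on the plus strand. miR-127-3p (chr14:100883035-100883056) lies in an intron of MIR493HG and antisense to an exon of RTL1. miR-370-3p (chr14:100911186-100911207) lies in introns of MEG8 and MIR493HG. Both belong to the proximal block, which gave 5 members from 5 of its 10 precursor names, between 89.7 and 132 kb downstream of the start of MEG3 (chr14:100779410-100861031). The distal block gave 24 members from 21 of 36 names, between 243 and 286 kb from that start. Among them, miR-494-3p (chr14:101029681-101029702) and miR-495-3p (chr14:101033804-101033825) lie in introns of MEG8. miR-654-3p (chr14:101040269-101040290) lies in no annotated host gene. Further downstream, miR-382-5p (chr14:101054316-101054337) lies in an exon of MEG9. Introns of the same gene hold miR-485-3p (chr14:101055464-101055485), miR-323b-3p (chr14:101056269-101056290), miR-409-5p (chr14:101065314-101065336) and miR-409-3p (chr14:101065346-101065367).

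Levels are given in CPM, the share of a miRNA in all miRNA counts of its library in parts of 1e+06, scaled by TMM (trimmed mean of M-values) factors over the 12 libraries. The miRNA counts per library ran from 703415 in hiPSC-EV 1 to 6272455 in CMm-EV 2. For a member with no count, 3 counts were taken as the upper limit, or 3.65 CPM in CMm-EV 1 and 0.639 CPM in hiPSC-EV 3. Such limits, and the intervals below, cover counting error only, since reads amplified by PCR are not independent molecules.

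The cluster was seen mainly in CPC-EV. Its summed level was 588 CPM ± 337 (SD, n = 3) in CPC-EV, against 6.97 ± 7.31 in CMm-EV, 21.2 ± 11.4 in hiPSC-EV and 22.3 ± 32.3 in CMi-EV. The CPC-EV libraries held 546, 945 and 274 CPM, and the highest of the 9 other libraries, CMi-EV 3, held 59.4 CPM. In hiPSC-EV the sums were 33.7, 18.3 and 11.5 CPM, in CMi-EV 7.50, 0 and 59.4 CPM, and in CMm-EV 14.6, 0 and 6.32 CPM. The CPC-EV libraries thus lay apart from all others, while hiPSC-EV, CMi-EV and CMm-EV overlapped. The 0 of CMi-EV 2 allows up to 1.58 CPM for a single member and that of CMm-EV 2 up to 0.796 CPM. Without TMM scaling, the members were at 848 CPM in CPC-EV 1 (95% Wilson interval 805 to 893), 1128 in CPC-EV 2 (1093 to 1165) and 479 in CPC-EV 3 (446 to 515). No test was made on these sums. Fewer vesicles or releasing cells with these miRNA and less of them in each cannot be told apart in such pooled preparations.

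Of the 6231 counts on all members, 5975 (95.9%) were in CPC-EV. Of the 29 members, 24 (82.8%) had their highest group mean in CPC-EV, compared with 197 of all 1133 miRNA (17.4%). A count was found for 39 of the 87 pairs of a member and a CPC-EV library (44.8%) and for 23 of the 261 pairs outside CPC-EV (8.81%). Over all miRNA of the table the same shares were 37.2% and 39.9%, the latter raised by hiPSC-EV 2 and hiPSC-EV 3. The CPC-EV libraries held counts for 421, 476 and 357 miRNA, beside 352, 653 and 879 in hiPSC-EV. In CMi-EV these numbers were 346, 382 and 352, and in CMm-EV 276, 363 and 417. Outside CPC-EV, 16 of these 23 values were above 3 counts, and the highest was 36 counts.

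**Figure D1:**
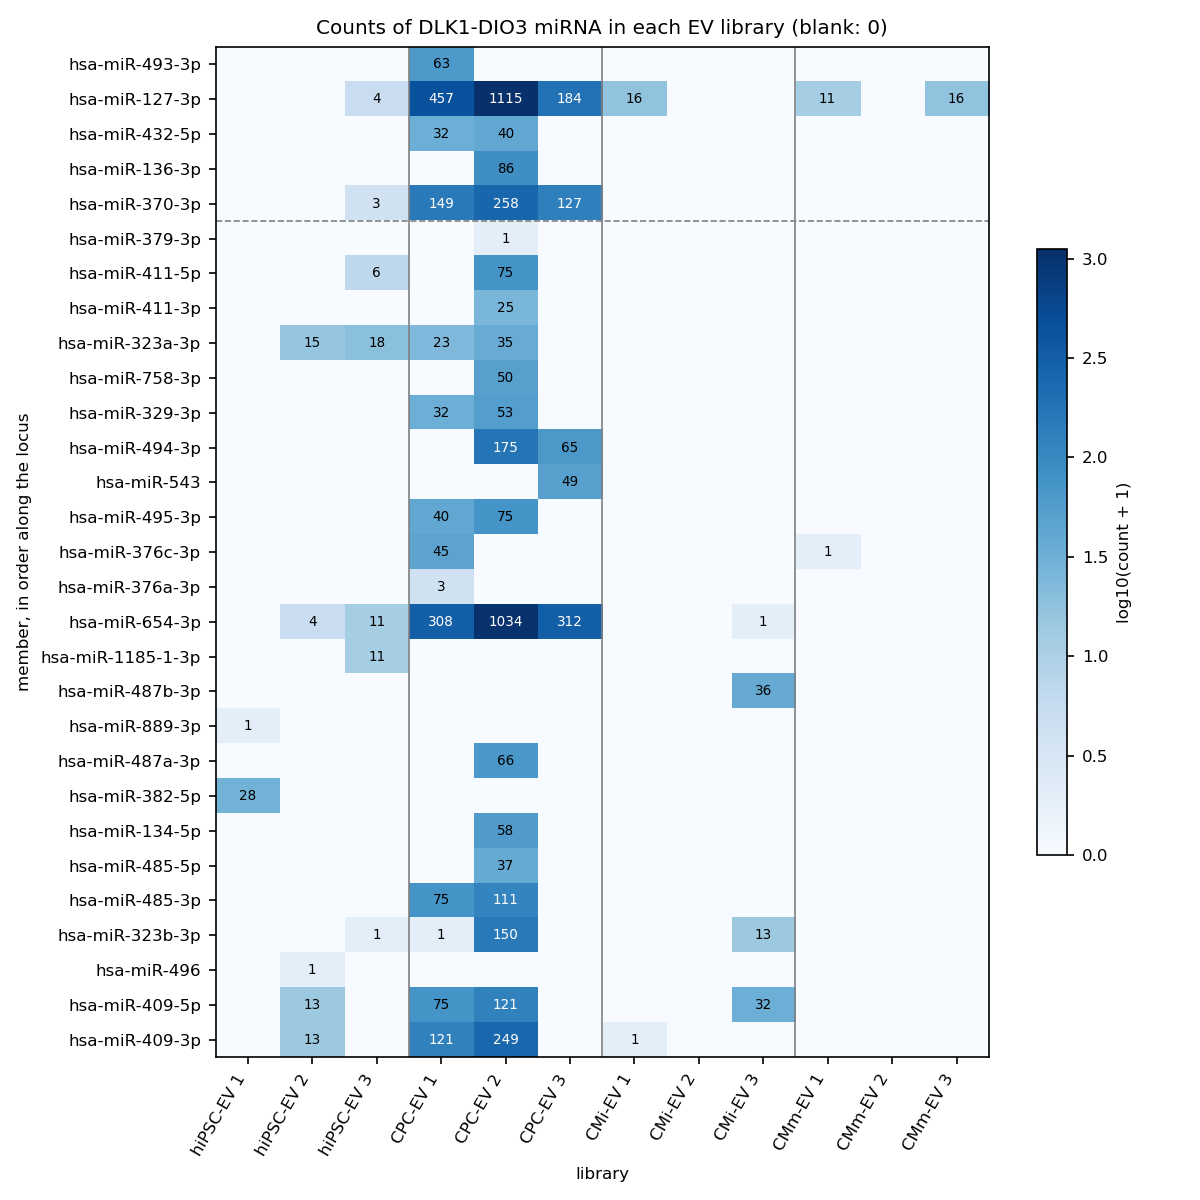
Counts of the 29 members (rows, in order along the locus, with the dashed line between the proximal and distal blocks) in the 12 EV libraries (columns, with lines between groups), coloured by log10(count + 1), with 0 left blank. Most counts are in the 3 CPC-EV libraries, and CPC-EV 3 holds 5 members where CPC-EV 1 holds 14 and CPC-EV 2 holds 20.

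The replicates of CPC-EV differed in how many members they held. CPC-EV 1 had counts for 14 members, CPC-EV 2 for 20 and CPC-EV 3 for 5, and 3 members (miR-127-3p, miR-654-3p and miR-370-3p) had counts in all 3. Of the 11 members with counts in both CPC-EV 1 and CPC-EV 2, 8 (72.7%) had none in CPC-EV 3, compared with 68 of 341 (19.9%) over all miRNA. The 341 include far more abundant miRNA, so that these shares do not compare miRNA of like level. The miRNA total of CPC-EV 3, 1539043 counts, lay beside 1680153 in CPC-EV 1. Scaled to the lowest depth of the series, the expected numbers of members were 13.2 in CPC-EV 1, 19.2 in CPC-EV 2 and 5.00 in CPC-EV 3. Elsewhere, hiPSC-EV 3 had counts for 7 members, hiPSC-EV 2 for 5, CMi-EV 3 for 4, and each remaining library for 2 or fewer. CPC-EV 3 also differed in cell type markers. From CPC-EV 1 to CPC-EV 3, pluripotency miRNA summed to 172700, 302350 and 106790 CPM, cardiomyocyte miRNA to 768, 862 and 1519 CPM, and mesenchymal and fibroblast miRNA to 3544, 3644 and 6571 CPM. The part of these in the level of the members was not tested. Results that rest on CPC-EV 3 are given with and without it.

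miR-127-3p, a member antisense to RTL1, had the highest mean level. It was at 175, 276 and 68.4 CPM in the CPC-EV libraries and at 0, 0 and 0.852 CPM in hiPSC-EV. The CMi-EV libraries held 7.06, 0 and 0 CPM and the CMm-EV libraries 13.4, 0 and 6.32 CPM. Every CPC-EV library was thus above every other library, and the 3 other groups overlapped.

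miR-654-3p followed, at 118, 256 and 116 CPM in CPC-EV and 0, 1.59 and 2.34 CPM in hiPSC-EV. It had a single count in CMi-EV, 0.724 CPM in CMi-EV 3, and none in CMm-EV. miR-370-3p, the third, was the most even member among the CPC-EV libraries, at 57.1, 63.9 and 47.2 CPM (56.1 ± 8.40, SD, n = 3). Its only other counts were 3 in hiPSC-EV 3, or 0.639 CPM, which equals the limit for that library. These 3 members made up 64.2%, 63.1% and 84.5% of the member counts in the CPC-EV libraries.

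**Figure D2:**
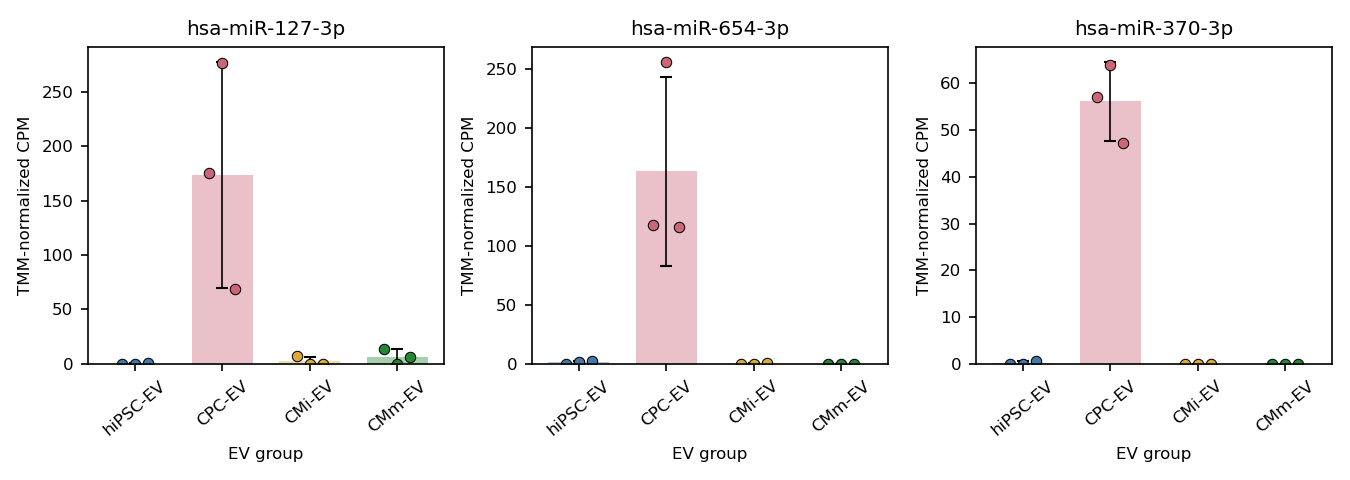
TMM-normalized CPM of miR-127-3p, miR-654-3p and miR-370-3p in each library (points) of the 4 EV groups, with the mean (bar) and SD (line, n = 3). For each of the 3 miRNA, every CPC-EV library lies above all 9 others, the lowest being 68.4, 116 and 47.2 CPM.

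The other named members were absent from at least 1 CPC-EV library. miR-409-3p was at 46.4, 61.7 and 0 CPM in CPC-EV, at 5.16 CPM in hiPSC-EV 2 and at 0.441 CPM in CMi-EV 1. From the opposite arm, miR-409-5p was at 28.8, 30 and 0 CPM in CPC-EV, at 5.16 CPM in hiPSC-EV 2 and at 23.2 CPM in CMi-EV 3. For miR-494-3p the CPC-EV values were 0, 43.3 and 24.2 CPM, with no count in any other group. Each of these was thus at 0 in a replicate of CPC-EV and at 24.2 CPM or more in the others.

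miR-485-3p and miR-495-3p also had counts in CPC-EV alone, at 28.8, 27.5 and 0 CPM and at 15.3, 18.6 and 0 CPM. miR-323b-3p reached 37.2 CPM in CPC-EV 2 and 9.42 CPM in CMi-EV 3, beside single counts elsewhere. Not all members followed the same course. miR-382-5p was found only in hiPSC-EV 1, at 32.5 CPM from 28 counts, and miR-487b-3p, chosen after its values were seen, only in CMi-EV 3, at 26.1 CPM from 36 counts. Every member outside the 10 shown was at 26.1 CPM or less in every library. Of all members, 15 had counts in a single library and 5 had none in CPC-EV.

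Between hiPSC-EV and CPC-EV, the day 0 to day 6 step, miR-127-3p, miR-654-3p and miR-370-3p rose. These were also the only members that passed the expression filter (at least 5 CPM in all 3 libraries of a group), and since they passed it through CPC-EV alone, their number and direction are no independent support. The quasi-likelihood test of edgeR, with thresholds of 0.05 on the FDR and 1 on the log2 fold change, called 3 of 3 members higher, and 11.5% of the 338 miRNA tested. With no filter it called 4 of 28 members higher, miR-494-3p being added, and 2.91% of 1031 miRNA. The log2 fold change was 8.94 (standard error 1.10, FDR = 0.00148) for miR-127-3p and 7.09 (standard error 0.77, FDR = 0.00144) for miR-654-3p, the former ranking 4 and the latter 8 among all 338. The size of the change of miR-127-3p rests on its 4 counts in hiPSC-EV 3, without which hiPSC-EV holds none. As miR-370-3p had 3 counts in hiPSC-EV, its ratio of pooled scaled counts is given, 154 with an exact 95% counting interval of 52.4 to 749 (FDR = 0.00463). These counts were all in hiPSC-EV 3, so that this size too rests on that library. All 3 members were higher in 3 of 3 libraries. Over all 338 miRNA the log2 fold changes had a median of -0.27, and of -0.10 with library-size scaling.

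The count rested on CPC-EV 3. Without it, 10 members passed the filter, all through the other CPC-EV libraries, so that their direction is again no support. Of these, 7 were called higher, as were 9.87% of the 375 miRNA then tested. Those added were miR-485-3p, miR-495-3p, miR-329-3p and miR-432-5p (FDR between 0.0222 and 0.0273), of which the last 2 were named after their values were seen. They had no count in hiPSC-EV or in CPC-EV 3.

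Between CPC-EV and CMi-EV, the day 6 to day 15 step, the same 3 members fell. They were again the only members past the filter, and again through CPC-EV alone, which fixes their direction. All 3 were called lower, and 14% of the 292 miRNA tested were. With no filter, the same 3 of 25 members were called lower, and 6.59% of 713 miRNA. The log2 level of miR-127-3p fell by 6.02 (standard error 1.46, FDR = 0.0362), a size that rests on CMi-EV 1, which holds all its 16 counts in CMi-EV. For miR-654-3p, with 1 count in CMi-EV, the ratio of pooled scaled counts was 984 in favour of CPC-EV, with an exact 95% counting interval of 176 to 38881 (FDR = 0.00202). miR-370-3p had no count in CMi-EV and was at least 33.2-fold lower there, against 3 counts per library (FDR = 0.00564). With a replicate block in the edgeR fit its call was lost (FDR = 0.0620), though the replicate numbers did not pair the libraries. All 3 CPC-EV libraries were above all 3 CMi-EV libraries for each. This comparison shares the CPC-EV libraries with the one before.

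The call of miR-127-3p depended on single libraries. In the fits that lost it by leaving a library out, the log2 fold change was -6.11 without CPC-EV 1 (FDR = 0.0993), -5.61 without CPC-EV 2 (FDR = 0.117) and -5.44 with CMi-EV 2 left out (FDR = 0.0568), and the FDR of all alternatives spanned 2.03e-07 to 0.117. Without CPC-EV 3, 9 of 10 members past the filter were called lower, again a direction set by passing through CPC-EV, as were 18.7% of 343 miRNA, with miR-409-3p, miR-485-3p, miR-495-3p, miR-329-3p, miR-432-5p and miR-323a-3p added, the last also named after its values were seen.

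In the step from CMi-EV to CMm-EV, and between both ends of the course, hiPSC-EV and CMm-EV, no member could be tested. None reached 5 CPM in all libraries of hiPSC-EV, CMi-EV or CMm-EV. Without the filter, edgeR called 0 of 7 members between CMi-EV and CMm-EV, with 0 at an unadjusted p of up to 0.05, and 7.23% of all 650 miRNA. Between hiPSC-EV and CMm-EV it called 0 of 13, with 1 at that level, and 20.3% of all 1018 miRNA. DESeq2 was run with the filter and tested no member either. No difference of a member was thus detected in these comparisons.

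Over the 4 EV groups together, an F-test in edgeR called the 3 members past the filter, and 50.7% of the 367 miRNA tested. These members passed it through CPC-EV alone, so that their calls are no independent support. The FDR was 7.63e-04 for miR-654-3p, 0.00269 for miR-370-3p and 0.0148 for miR-127-3p. Without CPC-EV 3 it called 9 of 10 members past the filter, which again passed through CPC-EV alone, and 49.8% of 400 miRNA. With no filter it called 6 of the 29 members and 17.5% of 1113 miRNA.

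Both blocks of the cluster were present in CPC-EV. The proximal block summed to 269, 371 and 116 CPM in the CPC-EV libraries and the distal block to 277, 573 and 158 CPM. The proximal block thus took 49.2%, 39.3% and 42.2% of the member counts with 5 of the 29 members. In hiPSC-EV, the counts came almost all from the distal block, which held 33.7, 18.3 and 10.0 CPM beside 0, 0 and 1.49 CPM of the proximal one. CMi-EV 3 held the distal block alone, at 59.4 CPM. The reverse held for CMi-EV 1, with 7.06 CPM of the proximal block and 0.441 of the distal one, for CMm-EV 1, with 13.4 and 1.22 CPM, and for CMm-EV 3, with 6.32 and 0 CPM. These sums outside CPC-EV rested on few members. The proximal counts of CMi-EV 1, CMm-EV 1 and CMm-EV 3 were all of miR-127-3p, at 16, 11 and 16. In hiPSC-EV 1, 28 of the 29 member counts were of miR-382-5p. No test of a difference between the blocks was made.

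**Figure D3:**
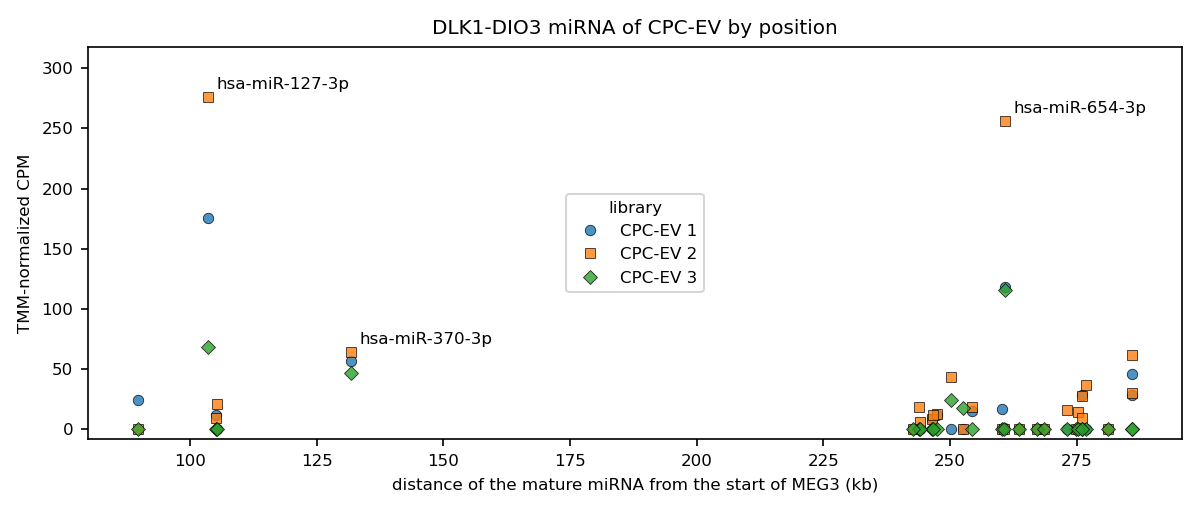
TMM-normalized CPM of each member in the CPC-EV libraries (symbols) against the distance of the mature miRNA from the start of MEG3 in kb. High and low members stand side by side in both blocks, and miR-127-3p and miR-654-3p are the highest, at up to 276 and 256 CPM.

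Both arms were found for 3 precursors, miR-409, miR-411 and miR-485. None reached 50 counts over both arms in every library of any group, so arm shares were compared between no groups. As a description chosen after the values were seen, miR-409-5p made up 38.3% of both arms in CPC-EV 1 and 32.7% in CPC-EV 2. At lower counts outside CPC-EV, it was 50% in hiPSC-EV 2, 0% in CMi-EV 1 and 100% in CMi-EV 3. For miR-485 the 5p arm was 0% in CPC-EV 1 and 25% in CPC-EV 2, and for miR-411 it was 75% in CPC-EV 2 and 100% in hiPSC-EV 3. Over the cluster, 21 of the members were 3p arms, 6 were 5p arms and 2 carried no arm in their name.

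MEG3 did not follow the miRNA. This transcript, the maternal noncoding RNA upstream of the miRNA, was read as fragments in all 12 libraries, from 9 counts in hiPSC-EV 3 to 139 in CMm-EV 2. Among gencode counts its level was 113, 107 and 12.7 CPM in hiPSC-EV and 59.2, 49.5 and 66.0 CPM in CPC-EV. It was at 233, 75.9 and 114 CPM in CMi-EV and at 410, 327 and 382 CPM in CMm-EV, so that all CMm-EV libraries were above all others and CPC-EV had the lowest mean on this scale, 58.2 CPM ± 8.30 (SD, n = 3). Gencode counts took a smaller part of the CMm-EV libraries, however. As RPM, with all reads of the library in place of gencode counts, MEG3 was at 66.0, 18.4 and 15.6 in CMm-EV, 14.1, 10.9 and 16.0 in CPC-EV, 34.9, 10.5 and 13.9 in CMi-EV, and 23.1, 12.3 and 0.938 in hiPSC-EV. On that scale all groups overlapped, and the lowest mean was in hiPSC-EV, at 12.1 beside 13.7 in CPC-EV. The F-test in edgeR did not call MEG3 (FDR = 0.0786), with 32.9% of 3381 gencode features called. DESeq2 did call it (FDR = 0.0313), and all alternatives spanned 0.0313 to 0.643.

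**Figure D4:**
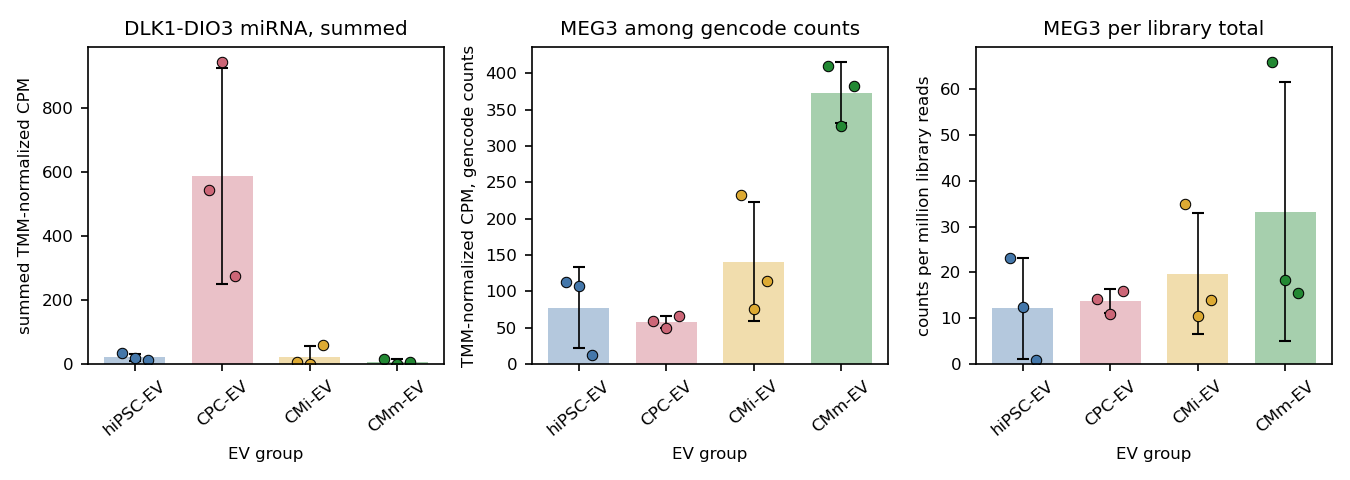
Summed TMM-normalized CPM of the 29 members (left), TMM-normalized CPM of MEG3 among gencode counts (middle) and MEG3 as RPM of all library reads (right) in each library (points) of the 4 EV groups, with mean (bar) and SD (line, n = 3). The members are highest in CPC-EV, where MEG3 lies at 49.5 to 66.0 CPM, and MEG3 is highest in CMm-EV on the middle scale, with overlapping groups on the right.

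No other transcript of the locus passed the filter. DLK1, which encodes a membrane protein related to Notch ligands, had 62 counts in CPC-EV 1, 8 in CMm-EV 2, 1 in CMi-EV 1 and 0 in the other libraries. The snoRNA family SNORD114 had 10 counts in CPC-EV 1 and 1 in CMm-EV 3. RTL1 and MEG8 had at most 3.00 and 1.67 estimated counts in any library. RTL1 reads and reads of miRNA precursors antisense to it cannot be told apart here, as the strand setting of the counting is not given in the sources used here. MEG9, DIO3, DIO3OS, SNORD112 and SNORD113 had no row in the table.

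Other miRNA of 14q32 took another course. Of 7 listed names outside the rule, 2 were found, miR-342 and miR-345, which are encoded outside the imprinted cluster. Together miR-342-3p, miR-342-5p and miR-345-5p summed to 1681 CPM ± 180 (SD, n = 3) in CPC-EV, the lowest mean. The other means were 1926 ± 415 in CMi-EV, 2438 ± 873 in CMm-EV and 2919 ± 1767 in hiPSC-EV, with libraries of all groups overlapping. None of the 3 had its highest mean in CPC-EV.

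Pluripotency miRNA separated the stem cell and progenitor stages from the cardiomyocytes, but not from each other. Their list (8 of 8 names found, led by miR-302a-5p) was at 324550 CPM ± 52363 (SD, n = 3) in hiPSC-EV and 193940 ± 99498 in CPC-EV, then at 12221 ± 2791 in CMi-EV and 562 ± 148 in CMm-EV. CPC-EV 2, at 302350 CPM, was above hiPSC-EV 1, at 277630, and 5 of the 16 miRNA of the list were highest in CPC-EV. Cardiomyocyte miRNA (6 of 6, led by miR-1-3p) summed to 60.4 ± 12.3, 1050 ± 409, 49972 ± 27465 and 99596 ± 94948 CPM in the same order.

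Among the other lists, endoderm and liver miRNA (4 of 4 names, led by miR-192-5p) had their highest sum in CPC-EV, as the members had, though only 2 of the 5 miRNA did. miR-192-5p itself was highest in CMi-EV, at a mean of 3353 CPM beside 2540 in CPC-EV. Their sums were 1302, 1827 and 2249 CPM in hiPSC-EV, 6948, 8870 and 6302 CPM in CPC-EV, 3765, 3470 and 7217 CPM in CMi-EV and 2797, 2245 and 4463 CPM in CMm-EV, so that CMi-EV 3 lay within the range of CPC-EV. Within this list, miR-375-3p was at 4421, 4833 and 2833 CPM in CPC-EV, each above every library of the other groups. Its means were 67.3 CPM in hiPSC-EV, 471 CPM in CMi-EV and 12.4 CPM in CMm-EV. miR-122-5p was at 469, 1226 and 478 CPM in CPC-EV, at 0 in hiPSC-EV 1 and hiPSC-EV 2, and highest in CMi-EV 3, at 2011 CPM. Here too, a part in the level of the members was not tested. Mesenchymal and fibroblast miRNA (5 of 5, led by miR-143-3p) were highest in CMm-EV, with means of 174720 CPM there, 51409 in CMi-EV, 4586 in CPC-EV and 783 in hiPSC-EV. Neural miRNA (4 of 4, led by miR-128-3p) lay between 1215 and 1720 CPM on average in every group. The endothelial miR-126 summed to 94.0, 69.8, 64.1 and 15.9 CPM from hiPSC-EV to CMm-EV, and blood miRNA (4 of 5, miR-223 without a row, led by miR-486-5p) to 7084, 988, 1627 and 826 CPM.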

How the data were processed

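Small RNA of 12 EV preparations (4 groups of 3) was analysed. The authors deposited expected counts per miRNA and per gencode feature, made with the exceRpt pipeline on hg38, and the submitters' processing notes name edgeR 3.24.0. The authors also deposited RPM, from which library totals were taken and which served as 1 alternative. Expected counts were rounded, since 9.11% of miRNA values above 0 were not whole (tolerance 1e-09), none of them a member's.

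CPM used TMM factors of all 12 libraries. Pairwise fits used TMM within their own 6 libraries, a filter of 5 CPM in every library of a group, and the two-sided quasi-likelihood test of edgeR 4.0.16 in R 4.3.3, with p-values adjusted by Benjamini-Hochberg over the whole tested table (FDR 0.05, log2 fold change of at least 1). An F-test compared the 4 groups. The fits were tested on simulated data. Alternatives were other scaling, other filters, DESeq2 1.42.0, robust fits, dispersions of all libraries, a replicate block and each library left out. Scaling by library totals and unrounded counts, both for MEG3, were chosen after seeing the data.

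Named were miR-127-3p, miR-654-3p, the 10 members highest on average, up to 8 called members per direction and comparison with libraries that did not overlap, and locus transcripts past the filter. Members and lists (pluripotency, cardiomyocyte, endoderm and liver, mesenchymal and fibroblast, neural, endothelial and blood miRNA, other 14q32 miRNA, locus transcripts) were chosen with earlier results of these data known. Sequences and mature coordinates are from RefSeq, and host genes from GENCODE 44. Tables and figures were made in Python 3.11.15 with pandas 2.3.3, numpy 2.4.6, matplotlib 3.10.9 and scipy 1.17.1. The tRNA, piRNA and circular RNA tables and the authors' normalized tables were not used here.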

Additional observations from a re-analysis of the deposited data

How the results depend on the processing

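Of 117 recomputed counts of called members and summed levels, 112 stayed within 1.5 times the main count or within 1 SD of the main level, but 26 of them had no member tested and could not move. The SD is wide, and the summed level of CMi-EV went from 22.3 to 3.75 CPM without CMi-EV 3 and that of CMm-EV from 6.97 to 0.405 CPM without miR-127-3p. Without a library, the number of members called ranged from 3 to 7 between hiPSC-EV and CPC-EV, from 2 to 9 between CPC-EV and CMi-EV and from 3 to 9 over the 4 groups, with the upper ends all without CPC-EV 3, where more members passed the filter. Without the filter, 6 of 29 members and 195 of 1113 miRNA were called over the 4 groups. Of the locus transcripts, DESeq2 called 1, MEG3. Of 159 recomputed values of miR-127-3p, miR-654-3p, miR-370-3p and MEG3, 153 kept their side of the threshold and 0 reversed. The other named members are not in this tally. miR-127-3p lost its call between CPC-EV and CMi-EV without CPC-EV 1, CPC-EV 2 or CMi-EV 2, and with the filterByExpr filter of edgeR (FDR 0.0502, range over the alternatives 2.03e-07 to 0.117). With library-size scaling, the calls between CPC-EV and CMi-EV were 31 higher and 56 lower instead of 42 and 41 over all miRNA, with the same 3 members lower.

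The replicate block took 2 members in place of 3 between CPC-EV and CMi-EV, with an FDR of 0.0620 for miR-370-3p (range over the alternatives 2.29e-08 to 0.0620), and changed no other call of a member. The fitted log2 fold change of miR-370-3p, over a group with no count, was -10.15 with the block and -10.13 in the main fit. The replicate numbers did not pair the libraries. Over 439 miRNA, the deviations of libraries with the same number from their group means correlated between -0.12 and 0.092, and 4 of 12 libraries correlated best with their own number.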
